A study of Mus musculus with 72 samples.

Results

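Regional transcription factors of the hypothalamus were followed through every library of a mouse study of 5 conserved noncoding elements, as a view of which nuclei each piece of dissected tissue held. The 10 genes Nr5a1, Fezf1, Sim1, Otp, Lhx9, Nkx2-1, Isl1, Tbx3, Sox14 and Foxb1 were taken by exact symbol from the 21749 genes that all 10 count tables list, and each of the 10 was found in every table. The libraries were made from total RNA of adult B6 mouse hypothalamus in 5 knockout lines, E1 to E5. Samples either lacked 1 element (knockout, KO) or carried the wild type sequence (WT), and came from mice that were fed or that had gone 72 h without food but with water. All 72 libraries fall into 20 groups of 3 or 4, by line, feeding state and genotype. Where each element lies, and from how many founders a line was bred, are not given in the sources used here.

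The hypothalamus is divided into nuclei that are laid down in the embryo by transcription factors, many of them homeodomain proteins, and neurons of the adult nuclei keep expressing several of these genes. Because each factor is restricted to certain nuclei, its level in a piece of whole hypothalamus depends on how much of that nucleus was dissected as well as on the RNA per cell. In bulk tissue, fewer cells of a kind and less RNA per cell cannot be told apart. Among the 10, Nr5a1 and Fezf1 mark the ventromedial nucleus, Sim1 and Otp the paraventricular and supraoptic nuclei, Nkx2-1 much of the tuberal hypothalamus, and Isl1 and Tbx3 the arcuate nucleus. Lhx9 is a LIM homeodomain gene of the lateral hypothalamus that is also known from the developing thalamus. Sox14 is known from inhibitory neurons of the diencephalon, and Foxb1 from the mammillary body.

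Promoter windows of 300 bases, placed around the start site that RefSeq gives, were held for 7 of the 10 genes in the RefSeq table of build GRCm38.p6. Nr5a1, Tbx3 and Foxb1 were not among them. The 4 printed here belong to 3 genes that varied together closely between libraries and to the gene that moved against them. They lie at chr12:56536859-56537158 on the minus strand (Nkx2-1), chr13:94875386-94875685 on the plus strand (Otp), chr6:23248215-23248514 on the minus strand (Fezf1) and chr1:138842395-138842694 on the minus strand (Lhx9). The windows of Lhx9 and of Sim1 lie wholly inside the gene as GENCODE draws it, downstream of its outermost start, while the other 5 span the GENCODE start. Each is written 5′ to 3′ along its gene, and capitals mark the single motif match.
Nkx2-1: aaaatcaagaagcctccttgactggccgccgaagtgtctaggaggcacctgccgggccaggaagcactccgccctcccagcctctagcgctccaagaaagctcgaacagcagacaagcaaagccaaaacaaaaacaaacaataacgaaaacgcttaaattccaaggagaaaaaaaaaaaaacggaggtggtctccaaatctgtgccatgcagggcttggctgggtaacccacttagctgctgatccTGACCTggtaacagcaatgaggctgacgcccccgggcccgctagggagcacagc
Otp: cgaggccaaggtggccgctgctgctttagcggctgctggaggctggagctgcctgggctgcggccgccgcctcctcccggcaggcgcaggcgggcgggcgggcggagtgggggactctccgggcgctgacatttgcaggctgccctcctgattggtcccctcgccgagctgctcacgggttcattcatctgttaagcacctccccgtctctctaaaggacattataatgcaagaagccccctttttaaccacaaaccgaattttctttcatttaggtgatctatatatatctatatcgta
Fezf1: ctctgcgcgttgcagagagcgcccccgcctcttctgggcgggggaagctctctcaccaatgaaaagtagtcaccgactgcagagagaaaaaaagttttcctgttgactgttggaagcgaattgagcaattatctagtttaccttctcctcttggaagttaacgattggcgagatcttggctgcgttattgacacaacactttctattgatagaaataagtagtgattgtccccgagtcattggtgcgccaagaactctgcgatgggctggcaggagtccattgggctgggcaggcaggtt
Lhx9: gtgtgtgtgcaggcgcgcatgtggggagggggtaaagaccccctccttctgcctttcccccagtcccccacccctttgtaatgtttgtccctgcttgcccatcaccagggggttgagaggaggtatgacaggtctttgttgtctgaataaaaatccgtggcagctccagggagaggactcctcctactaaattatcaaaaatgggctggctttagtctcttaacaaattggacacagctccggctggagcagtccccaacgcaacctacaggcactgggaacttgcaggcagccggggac
The motifs searched on both strands were the homeodomain core TAATTA, the Nkx2-1 core CAAGTG, the nuclear receptor core AGGTCA, the T-box core GGTGTGA, the forkhead core GTAAACA and the Sim1-Arnt2 core TACGTG. No motif contains another. In the 7 windows there was 1 match, TGACCT in the Nkx2-1 window, which is AGGTCA read on the other strand. AGGTCA was held by 16.3% of all 32851 promoter windows in the table, CAAGTG by 13.6%, TAATTA by 5.29%, GGTGTGA by 3.98%, GTAAACA by 3.65% and TACGTG by 3.23%. GC content ran from 46.0% (Sim1) to 69.0% (Isl1) over the 7 windows, against a median of 52.7% over all windows. A match describes letters only, and a window without one says nothing of the factor.

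Depth ran from 5517552 to 39999368 counts per library with a median of 20890991, and none of the 10 genes was at 0 in any library. The lowest single value was 1 count, for Sox14. Levels are given as CPM, counts scaled to the total of the library. Count tables listed 21749 genes for E1 and E3, 52286 for E4 and 55401 for E2 and E5. The totals behind CPM thus cover different sets of genes between lines. Batch labels name 7 batches. E1 and E3 each had a batch of their own for fed and fasted libraries together, fed and fasted libraries of E2, E4 and E5 came from different batches, and fed E2 shared a batch with fasted E5. KO and WT of one line and feeding state always shared a batch. Reads of the Y-linked gene Ddx3y ranged from 69.8 to 136 CPM throughout E3 and reached at most 0.298 CPM in the other 60 libraries. In 6 libraries, all fasted, the summed anterior pituitary genes exceeded 1000 CPM: all 3 of fasted E2 WT and 1 each of fasted E4 KO, E5 KO and E5 WT. Nothing states that replicates came from separate mice, and p-values may then measure only the spread between these libraries.

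Scaled to the longest transcript of each gene, Otp was the most abundant of the 10 factors, at a median of 12 CPM per kb, and ranked first in 68 of 72 libraries. Isl1 followed with a median of 7.02 CPM per kb, then Nkx2-1 with 5.65, Sim1 with 4.02, Fezf1 with 3.78, Nr5a1 with 3.15 and Tbx3 with 2.01. Lhx9 (1.01), Sox14 (0.987) and Foxb1 (0.569 CPM per kb) were the lowest. Foxb1 was among the lowest 2 in 65 libraries and Sox14 in 41. Lhx9 had the widest range of ranks: it was among the lowest 2 in 35 libraries and ranked first in 2. The plot of levels by group shows every value.

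**Figure D1:**
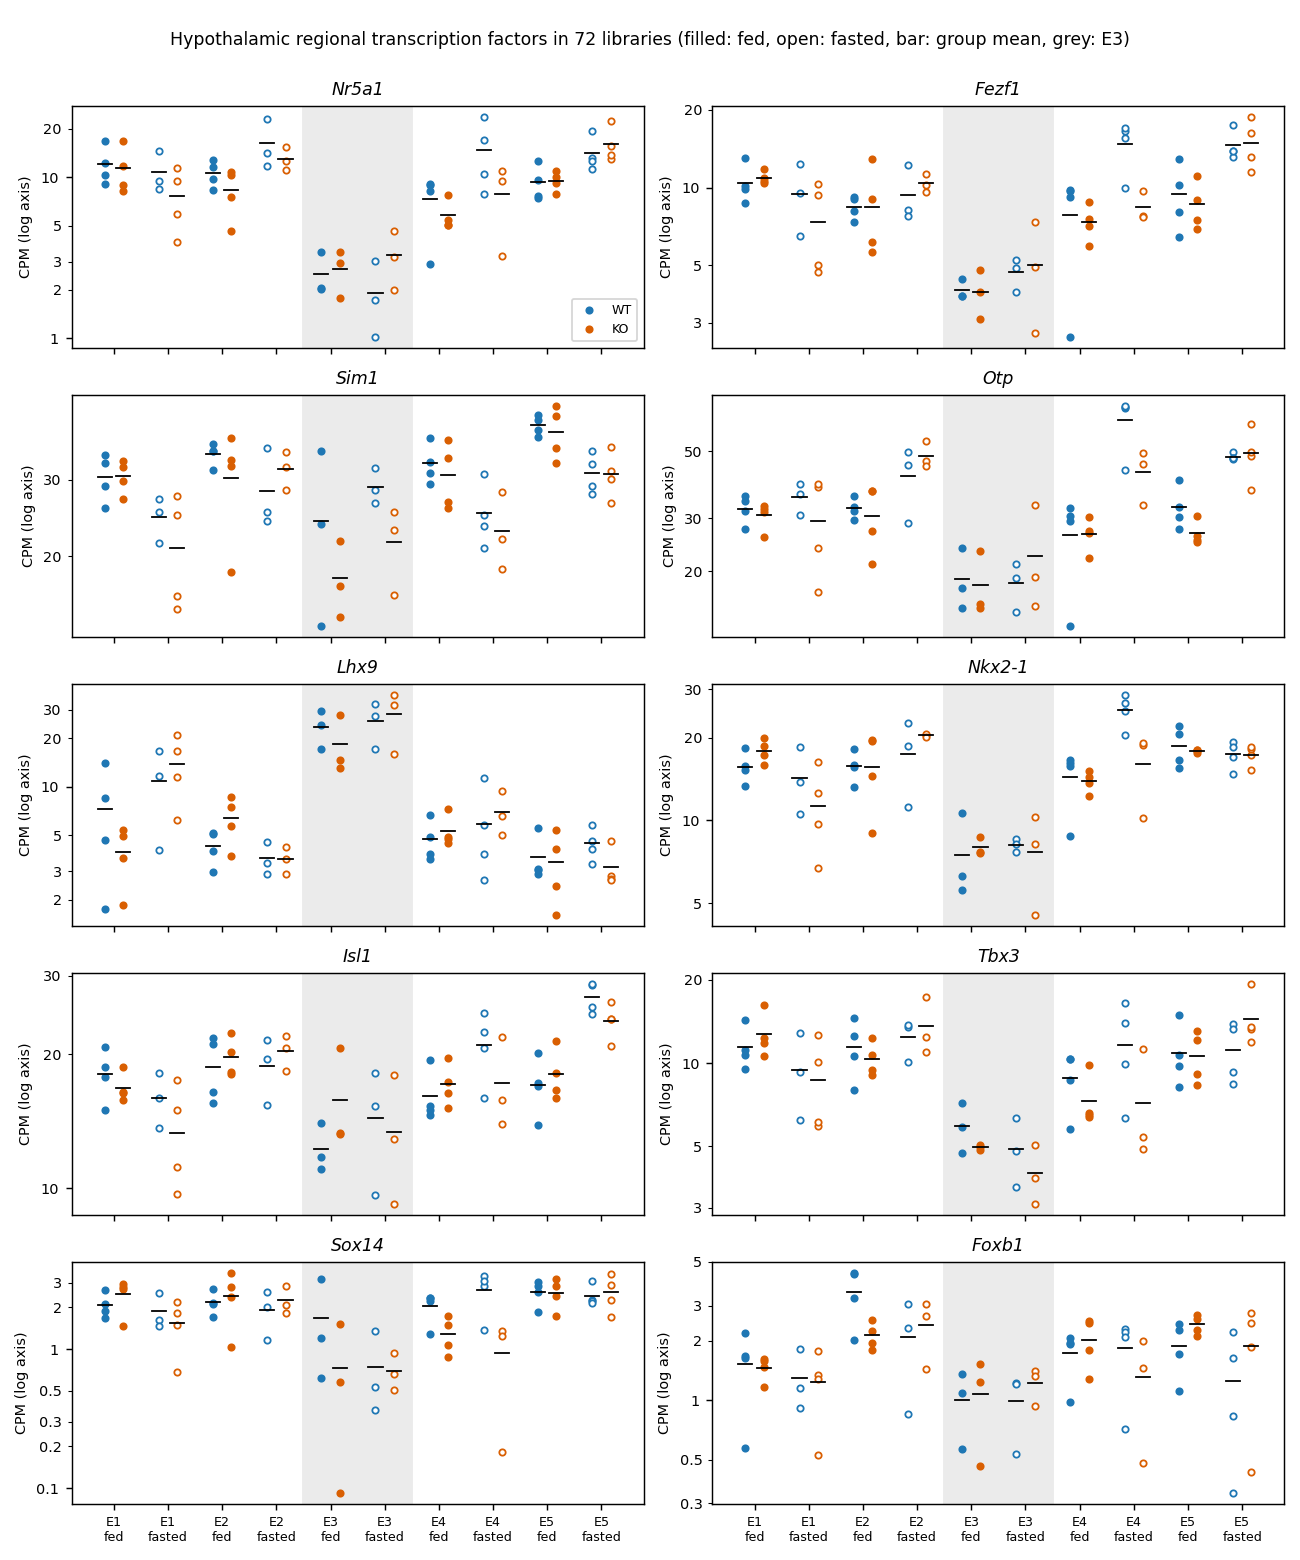
CPM (log axis) of the 10 factors in each library, by line and feeding state, with WT in blue, KO in orange, fed filled, fasted open and a bar at each group mean; E3 is shaded grey. Lhx9 is high and Nr5a1 low throughout E3, and Otp is highest in fasted E4 WT, at a mean of 63.4 CPM.

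The ventromedial pair sat at medians of 9.42 CPM (Nr5a1, chromosome 2, 38692656 to 38714542, minus strand) and 9.12 CPM (Fezf1, chromosome 6, 23245044 to 23248362, minus strand; build GRCm38 here and below). Nr5a1 encodes the nuclear receptor SF-1, which is required for the ventromedial nucleus to form, and Fezf1 encodes a zinc finger factor of the same neurons. By group mean Nr5a1 ran from 1.92 ± 1.0 CPM in fasted E3 WT (SD, n = 3) to 16.3 ± 6.01 in fasted E2 WT (n = 3), and Fezf1 from 3.95 ± 0.857 in fed E3 KO (n = 3) to 14.9 ± 3.26 in fasted E5 KO (n = 4). The 3 fasted E2 WT libraries also held summed pituitary genes of 1274, 11680 and 5799 CPM, and the part of these in the high Nr5a1 was not tested. Ordered by mean, 18 of the 19 neighbouring pairs of groups overlapped for either gene.

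Otp (chromosome 13, 94875602 to 94885130, plus strand) and Sim1 (chromosome 10, 50894754 to 50989152, plus strand), which specify oxytocin, vasopressin and other neurosecretory neurons, had medians of 31.9 and 29.5 CPM. Otp group means ran from 18.0 ± 4.60 CPM in fed E3 KO (n = 3) to 63.4 ± 13.3 in fasted E4 WT (n = 4). Sim1 varied over a narrower range, from 17.8 ± 3.65 in fed E3 KO (n = 3) to 40.0 ± 2.09 in fed E5 WT (n = 4). All 19 neighbouring pairs of groups overlapped for both.

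Nkx2-1 (chromosome 12, 56531958 to 56536908, minus strand), a homeodomain factor of the ventral forebrain, ran from 7.51 ± 2.76 CPM in fed E3 WT (n = 3) to 25.1 ± 3.51 in fasted E4 WT (n = 4). Isl1 (chromosome 13, 116298281 to 116309689, minus strand), a LIM homeodomain factor of arcuate melanocortin neurons, ran from 12.2 ± 1.54 in fed E3 WT (n = 3) to 26.9 ± 2.09 in fasted E5 WT (n = 4). Tbx3 (chromosome 5, 119670669 to 119684724, plus strand), a T-box factor of the arcuate nucleus, ran from 4.01 ± 0.997 in fasted E3 KO (n = 3) to 14.5 ± 3.31 in fasted E5 KO (n = 4). Sox14 (chromosome 9, 99874106 to 99876170, minus strand) and Foxb1 (chromosome 9, 69757710 to 69760940, minus strand) stayed low, at 0.0927 to 3.54 and 0.34 to 4.41 CPM. Lhx9 (chromosome 1, 138825186 to 138848577, minus strand) ran from 3.18 ± 0.951 CPM in fasted E5 KO (n = 4) to 28.4 ± 11.1 in fasted E3 KO (n = 3). For these genes too, all 19 neighbouring pairs of groups overlapped. Genes on the opposite strand overlap Nr5a1 (Nr5a1os), Nkx2-1 (Gm26973), Tbx3 (Tbx3os1) and Foxb1 (B230323A14Rik), and without a stated strand their reads cannot be told apart.

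The E3 line stood apart in the balance of the factors. It held the lowest group mean for 9 of the 10 and the highest for Lhx9. Nr5a1 was at 1.03 to 4.66 CPM (median 2.49) in the 12 E3 libraries and at 2.88 to 23.7 (median 10.3) in the 60 of the other lines. Lhx9 went the other way, at 13.1 to 37.2 CPM (median 25.7) in E3 and 1.61 to 21.0 (median 4.62) elsewhere. Nkx2-1 had a median of 7.95 CPM in E3 against 17.1, Fezf1 4.20 against 9.71 and Otp 18.3 against 33.1, with overlapping ranges for all 5 genes. Summed thalamus genes moved with this: the 8 genes of that list (Tcf7l2, Lef1, Prkcd, Gbx2, Ntng1, Plekhg1, Synpo2 and Amotl1) summed to 719 to 2273 CPM in E3 and 352 to 1797 elsewhere. Median sums of cortex and hippocampus genes were 56.5 CPM in E3 against 21.5, of midbrain genes 65.2 against 35.6 and of pituitary genes 1.23 against 3.54. The part of neighbouring tissue in the difference was not tested. Summed suprachiasmatic genes (Vip, Nms, Prok2, Six6 and Rorb) were higher in E3. Their group means were 225.8 to 260.9 CPM there and 119.1 to 195.7 in the other lines, with overlap of single libraries. Line, batch and Ddx3y coincide here and cannot be told apart, so no test between lines was made.

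Within groups the factors spread more widely than most genes. The pooled SD of log2 levels within groups was 0.58 for Lhx9, 0.49 for Foxb1, 0.48 for Nr5a1, 0.46 for Sox14, 0.38 for Fezf1, 0.36 for Tbx3, 0.32 for Otp and for Nkx2-1, 0.27 for Sim1 and 0.24 for Isl1. The median over 14036 genes, not matched to the factors by level, was 0.21. From 63.3% (Isl1) to 97.9% (Lhx9) of those genes had a smaller SD than the factor. Counting alone would give 0.06 for Otp and Sim1 and at most 0.19, for Foxb1 and Sox14, less than the observed spread for each factor.

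Knockout of an element was compared with wild type within each line and feeding state, to ask whether its loss altered the factors. In none of the 10 comparisons did a factor pass the test (edgeR quasi-likelihood, Benjamini-Hochberg adjusted p under 0.05 over all genes tested). The background was the same: 0% of the 14590 to 20243 genes tested were called in each comparison. That count over all genes was less steady than the count of factors: DESeq2 called 0 to 539 genes per comparison, both feeding states in 1 model 0 to 605 (fasted E3), and fasted E2 without WT 3 gave 772, each with 0 factors called. Over the 100 estimates, 59 were lower and 41 higher in KO, the median was -0.06 on the log2 scale, the range -1.22 to 0.71, and the smallest edgeR adjusted p was 0.206. In the authors' deposited tables for 8 of these comparisons, all 80 values of the factors have an adjusted p of 1, with log2 changes from -1.20 to 0.71 as KO over WT.

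At an unadjusted p under 0.05, 9 of the 100 estimates stood out, where 2.82% to 17.5% of all genes did so per comparison. In fed E1 (background 4.85%), fasted E1 (3.9%), fasted E2 (7.47%) and fed E3 (9.74%) no factor did. Among the 9 was Foxb1 in fed E2, at 1.94, 1.79, 2.23 and 2.54 CPM in KO and 2.01, 4.41, 3.28 and 4.33 in WT. Groups overlapped through the first WT library (log2 -0.70, SE 0.26, edgeR p 0.0247, adjusted p 0.866, 3.5% of all genes with a p under 0.05). Barhl1, a homeodomain gene also known from the mammillary region, gave -0.78 there (SE 0.20, edgeR p 0.00377, adjusted p 0.866) and did not pass. Thalamus sums in fed E2 were 414 to 1369 CPM in KO and 448.1 to 597 in WT, and the part of dissection was not tested.

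Sim1 in fasted E3 was at 23.0, 16.3 and 25.3 CPM in KO against 26.5, 28.4 and 31.9 in WT. These groups did not overlap (log2 -0.50, SE 0.17, edgeR p 0.0149, adjusted p 0.206), in a comparison where 17.5% of all genes had a p under 0.05. Otp in fed E5 was at 26.1, 25.1, 25.4 and 30.4 CPM in KO and 32.8, 40.1, 27.7 and 30.2 in WT (log2 -0.30, SE 0.10, edgeR adjusted p 1.0; 2.82% of all genes). Lhx9 in fasted E5 was at 2.80, 4.60, 2.67 and 2.64 CPM in KO and 3.33, 4.63, 4.13 and 5.79 in WT (log2 -0.50, SE 0.23, edgeR adjusted p 0.678; 7.32% of all genes). Both of these pairs of groups overlapped.

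**Figure D2:**
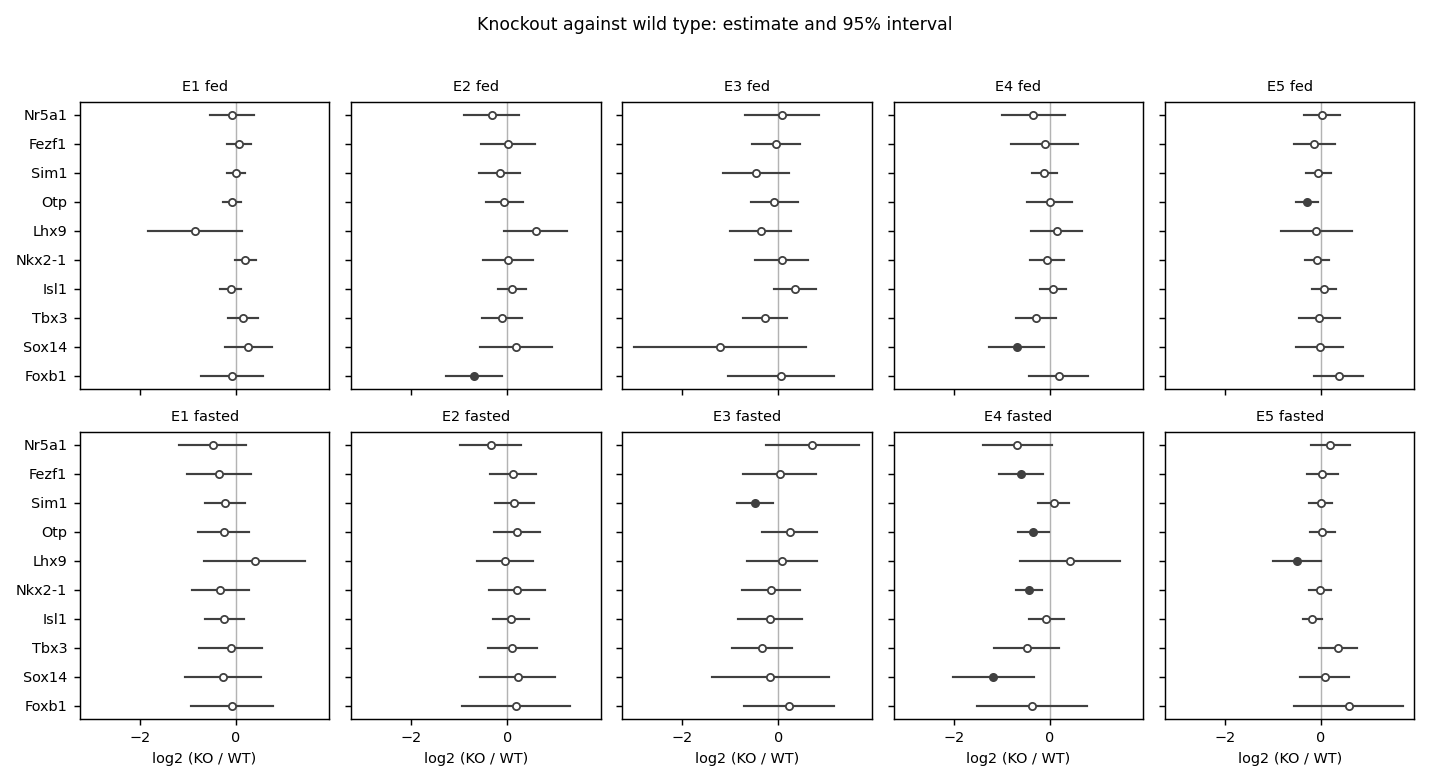
Log2 of KO over WT with its 95% interval for the 10 factors in each line, fed (top) and fasted (bottom), from edgeR; filled points have an unadjusted p under 0.05. Most points lie near 0, and fasted E4 holds 4 of the 9 filled points, all to the left of 0.

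Fasted E4 held 4 of these 9 estimates, with 9.39% of all genes at a p under 0.05. Fezf1 was at 7.79, 9.71 and 7.72 CPM in KO and 15.6, 9.97, 16.5 and 17 in WT. Nkx2-1 was at 10.2, 18.9 and 19.1 in KO and 24.9, 20.4, 28.6 and 26.6 in WT. In CPM, before edgeR's scaling, neither pair of groups overlapped, with all KO libraries under all WT libraries. Values of single libraries after that scaling are not given here, so the separation is one of CPM only. Sox14, at 0.181, 1.36 and 1.25 CPM in KO and 2.83, 1.38, 3.38 and 3.08 in WT, did not overlap either, though its lowest value is a single count. Gaps between the groups were narrow for Fezf1 (9.71 against 9.97 CPM) and Sox14 (1.36 against 1.38). The share of all genes without overlap is not given here for any comparison. Otp was at 33.2, 49.3 and 45.4 in KO and 69.3, 43.4, 70.1 and 70.8 in WT, overlapping through the second WT library.

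After edgeR's scaling the fasted E4 estimates were -0.61 (SE 0.21) for Fezf1, -0.43 (0.12) for Nkx2-1, -0.35 (0.15) for Otp and -1.17 (0.39) for Sox14, with adjusted p of 0.496 to 0.514. Estimates were negative for 8 of the 10 factors, with a median of -0.40 against 0.01 over all 17929 genes. The factors varied together between libraries, as given below, so these 10 estimates are not separate observations. The first KO library had the lowest depth of the series (5517552 counts), and without it the same 4 estimates were -0.75, -0.40, -0.42 and -1.01. Summed pituitary genes were at 34.4, 1.31 and 6419 CPM in KO and 33.9, 4.74, 5.71 and 195.2 in WT, and summed thalamus genes at 452 to 543 and 423 to 883. In fed E4, Sox14 was at 1.49, 0.878, 1.73 and 1.07 CPM in KO and 2.33, 2.31, 2.21 and 1.28 in WT, an overlap through the fourth WT library (log2 -0.69, SE 0.26, edgeR adjusted p 0.788; 5.23% of all genes). Nkx2-1 there gave -0.06 (SE 0.16) and Fezf1 -0.10 (SE 0.31).

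Fasting could be tested in E1 and E3, where fed and fasted libraries shared a batch. In E1 knockouts 3 of the 10 factors passed the test, in a comparison where 34.9% of 14807 genes did (18.3% higher and 16.6% lower). Lhx9 rose, and Nkx2-1 and Sim1 fell. Lhx9 was at 3.62, 5.37, 4.93 and 1.85 CPM in fed KO and 6.25, 11.6, 16.7 and 21.0 in fasted KO. All fasted libraries lay above all fed ones (log2 1.81, SE 0.37, 95% interval 0.99 to 2.62, edgeR adjusted p 0.00355), and without any 1 library the estimate stayed between 1.5 and 2.06.

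Nkx2-1 was at 15.9, 17.2, 18.7 and 19.9 CPM in fed E1 KO and 12.6, 9.70, 16.3 and 6.69 when fasted, and the groups overlapped only through the third fasted library (log2 -0.68, SE 0.19, edgeR adjusted p 0.0185). Sim1 was at 33.1, 32.0, 29.8 and 27.1 CPM fed and 24.9, 16.3, 27.5 and 15.2 fasted, again overlapping through the third fasted library (log2 -0.55, SE 0.15, edgeR adjusted p 0.0171). Without any 1 library the estimates stayed between -0.89 and -0.51 for Nkx2-1 and between -0.70 and -0.44 for Sim1, but the adjusted p crossed the threshold. Without fasted KO 2 the adjusted p of Nkx2-1 was 0.0515 and without fed KO 4 it was 0.0533, while that of Sim1 was 0.0509 without fed KO 1. In the other direction, without fasted KO 3 the calls rose from 3 to 6 of 10, adding Fezf1 (-0.77), Tbx3 (-0.78) and Isl1 (-0.49), with 28.7% of all genes called. Without fasted KO 1, Fezf1 (-0.70) was added, with 31.7% of all genes called.

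With all libraries, the estimates of these 3 in E1 knockouts were -0.58 for Fezf1 (SE 0.21, edgeR adjusted p 0.0507), -0.56 for Tbx3 (0.22, 0.0655) and -0.35 for Isl1 (0.15, 0.0858). Sox14 gave -0.71 (SE 0.31, edgeR adjusted p 0.093), Nr5a1 -0.59 (0.29, 0.138), Foxb1 -0.26 (0.30, 0.52) and Otp -0.07 (0.20, 0.80). Estimates were thus negative for 9 of the 10, with a median of -0.55 against 0.01 over all genes. The factors varied together between libraries, so these estimates are again not separate observations. Fasted KO 4 lay below its group mean in every factor but Lhx9, and fasted KO 3 above it in every factor. Otp lay nearest to 0, at 32.1, 33.0, 31.4 and 26.0 CPM fed and 38.0, 23.8, 38.9 and 17 fasted. The fasted libraries lay on both sides of the fed ones, and the 95% interval was -0.51 to 0.36.

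Genes of neighbouring tissue moved in the same libraries. All 8 thalamus genes rose in fasted E1 knockouts, among them Prkcd (log2 3.60, SE 0.37), Gbx2 (3.05, SE 0.62) and Synpo2 (2.20, SE 0.34). Their sum was at 598, 612, 538 and 591 CPM fed and 690, 1317, 1595 and 1797 fasted, in the same order of fasted libraries as Lhx9. Of the 6 cortex and hippocampus genes 3 rose (Slc17a7 log2 5.11, SE 0.68, with Neurod2 and Emx1), their sum moving from 16 to 23.6 CPM fed to 48.0 to 344 fasted. Of 5 midbrain genes 0 passed, all with positive estimates, and 2 of the 4 pituitary genes tested fell, the summed list going from 4.96 to 7.02 CPM to 1.21 to 2.61. Summed striatum genes were at 670 to 786 CPM fed and 381 to 662 fasted, without overlap, and of the 7 genes 1 rose and 2 fell. The part of dissected neighbouring tissue in the changes of the factors was not tested.

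Among the 36 other hypothalamic transcription factors followed beside the 10, 31 were tested in fasted against fed E1 knockouts and 7 passed, beside 34.9% of all genes. Lhx2 (log2 1.23, SE 0.36) and Zic1 (1.09, SE 0.29) rose. Sim2 (-0.85, SE 0.20), Lmx1a (-0.76, SE 0.19), Prdm12 (-0.66, SE 0.21), Six3 (-0.39, SE 0.12) and Onecut2 (-0.29, SE 0.10) fell. Lhx2 is the closest relative of Lhx9, and Sim2 of Sim1.

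**Figure D3:**
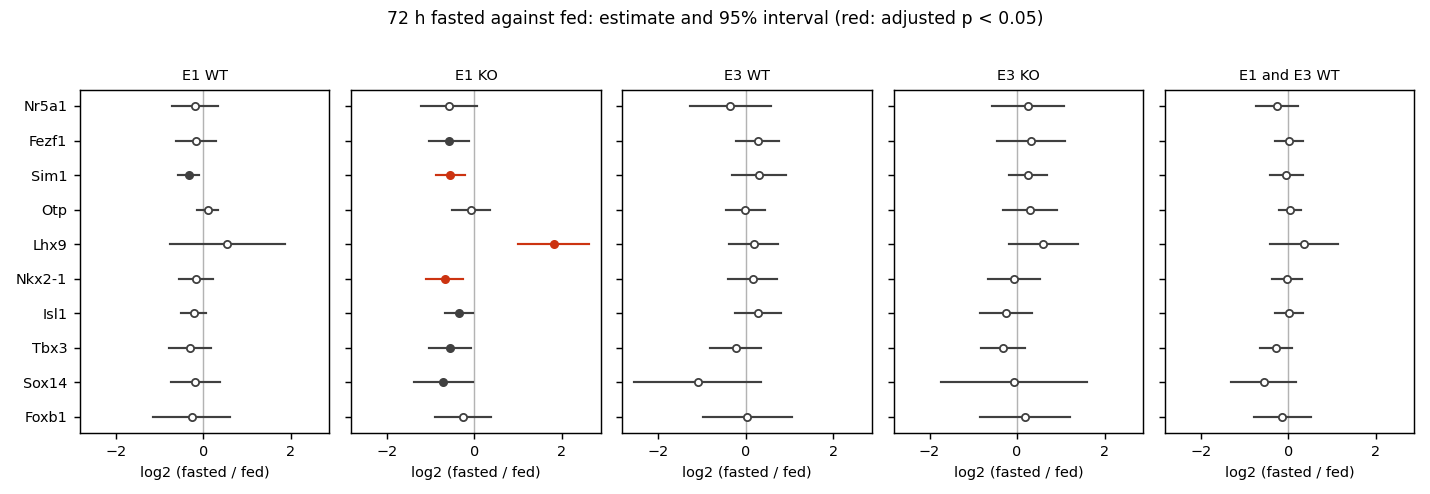
Log2 of fasted over fed with its 95% interval for the 10 factors in the 4 groups of E1 and E3 and in the joint wild type fit, from edgeR; red points passed an adjusted p of 0.05 and filled black points an unadjusted p of 0.05. Only the E1 KO panel holds red points, at 1.81 for Lhx9, -0.68 for Nkx2-1 and -0.55 for Sim1.

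In E1 wild types 0 of 10 factors passed, with 5.27% of 14877 genes called (2.3% higher and 2.97% lower), and 1 had an unadjusted p under 0.05 (23.7% of all genes). The share of all genes called ran from 0.66% without fasted WT 1 to 17.1% without fasted WT 3, with 0 factors called in either. Lhx9 was at 8.57, 1.74, 13.9 and 4.70 CPM in fed WT and 11.7, 16.7 and 4.07 when fasted, with broad overlap (log2 0.55, SE 0.59, interval -0.76 to 1.87). Sim1 was at 34.1, 32.8, 25.8 and 29.0 CPM fed and 27.1, 21.5 and 25.3 fasted, overlapping through the third fed library (log2 -0.34, SE 0.11, edgeR p 0.0127, adjusted p 0.104). Thalamus sums of these wild types were already uneven when fed, at 762, 545.3, 1279 and 749 CPM, and were 1081, 1429 and 441 when fasted. In either state Lhx9 put the libraries in the same order as the thalamus sum did. Whether fasting acted differently in KO and WT was tested as an interaction: for Lhx9 it was 1.25 (SE 0.78, edgeR adjusted p 0.637), so no difference between the genotypes was shown.

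In E3 wild types 0 of 10 factors passed with 19.9% of 14534 genes called, and in E3 knockouts 0 of 10 with 0.505% of 14663. At an unadjusted p under 0.05 there were 0 factors in either (34.9% and 13.1% of all genes). DESeq2 called 0 in both, but gave no adjusted p for Sox14 and Foxb1, which it could not call. With 1 library left out, the share of all genes called ran from 6.12% (without fed WT 3) to 25.4% (without fasted WT 2) in the wild types, and from 0% (without fed KO 1 or 2) to 0.62% (without fasted KO 3) in the knockouts. Lhx9 gave 0.18 (SE 0.25) in WT and 0.60 (SE 0.34) in KO, and Sim1 0.30 (SE 0.28) and 0.25 (SE 0.19). Without fasted E3 WT 2, Isl1 passed in the wild types (log2 0.52, edgeR adjusted p 0.038), against a log2 of 0.28 and an adjusted p of 0.429 with all libraries. The joint fit of E1 and E3 wild types also called 0 factors, with 11% of 14847 genes called (4.48% without fed E3 WT 3 and 21.6% without fasted E1 WT 3). Its estimates ran from -0.57 (Sox14, SE 0.35) to 0.37 (Lhx9, SE 0.37), and Otp at 0.04 had an interval of -0.20 to 0.29.

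The interaction of genotype and feeding called 0 factors in each of the 5 lines, and 0 of the 50 estimates had an unadjusted p under 0.05, where 8.1% (E1), 6.45% (E2), 20.4% (E3), 11.2% (E4) and 5.95% (E5) of all genes did. At an adjusted p, 0% of all genes were called in E1, E2, E4 and E5 and 1.34% in E3. The E3 share was 0% with a replicate block, and between 0% (without fed WT 2, for example) and 4.59% (without fasted WT 2) when 1 library was left out. In E2, E4 and E5 fed and fasted libraries came from different batches, so only values can be given. Otp was at 32.4, 29.4, 30.5 and 13.2 CPM in fed E4 WT and 69.3, 43.4, 70.1 and 70.8 in fasted E4 WT, without overlap. In E5 WT it was at 32.8, 40.1, 27.7 and 30.2 fed and 49.7, 47.1, 47.5 and 47.5 fasted, again without overlap. Sim1, of the same nuclei, went the other way in E5 WT. It was at 37.5 to 42.2 CPM when fed, while no fasted library of any line exceeded 35.7. Over all lines the medians were 32.9 CPM fed and 26.8 fasted for Sim1, and 29.5 and 44.0 for Otp. The share of all genes without overlap is not given here. Feeding and batch cannot be told apart in these lines, and in the single-batch E1 and E3 the estimates of Otp lay between -0.07 and 0.30.

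Libraries of one group differed from each other in a shared pattern. Each factor's log2(CPM + 0.5) was taken as a deviation from its group mean, so that line, batch, feeding and genotype were removed, and the 45 pairs of factors were correlated over 72 libraries with a two-sided permutation test of 100000 permutations within groups. After Benjamini-Hochberg adjustment over the 45 pairs, 34 passed by Pearson's r and 37 by Spearman's rho. All 36 pairs without Lhx9 were positive, with r from 0.03 to 0.81, and 28 passed. All 9 pairs with Lhx9 were negative, from -0.53 to -0.23, and 6 passed. With TMM-scaled CPM 26 of the 45 pairs passed, 22 positive and 4 negative. Libraries share their dissection and total, and CPM of different genes come from one total. The share of all gene pairs that would pass is not given here, so these counts do not set the factors apart from other genes.

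The closest pair was Otp and Nkx2-1 (r = 0.81, rho = 0.74, permutation p 1e-05 for both, the smallest these permutations can give, adjusted p 6.43e-05). Fezf1 with Otp gave r = 0.74, Nr5a1 with Nkx2-1 0.72 and Fezf1 with Nkx2-1 0.70. Nr5a1 and Fezf1, of the same nucleus, gave 0.61, and Sim1 and Otp 0.63. Within E5 alone Sim1 had negative r with Otp (-0.35), Fezf1 (-0.59), Nr5a1 (-0.41) and Nkx2-1 (-0.22). Foxb1 was the least tied, with 2 of its 9 pairs past the test (Tbx3 0.31, Nkx2-1 0.27), and Sim1 with Sox14 gave 0.03. Lhx9 was furthest below 0 with Nr5a1 (-0.53) and Tbx3 (-0.47). Leaving out the 2 libraries farthest from the median of the first factor of each pair kept all 45 signs, with r from -0.55 to 0.75.

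Within single lines, of which E1 and E3 are also single batches, the signs held in all 45 pairs for E1 and for E4, 43 for E2, 31 for E3 and 27 for E5. The number past the test was 12 (E1), 7 (E2), 0 (E3), 12 (E4) and 6 (E5). Without any 1 library it lay between 27 (without fasted E4 WT 2) and 39 (without fed E3 KO 2).

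**Figure D4:**
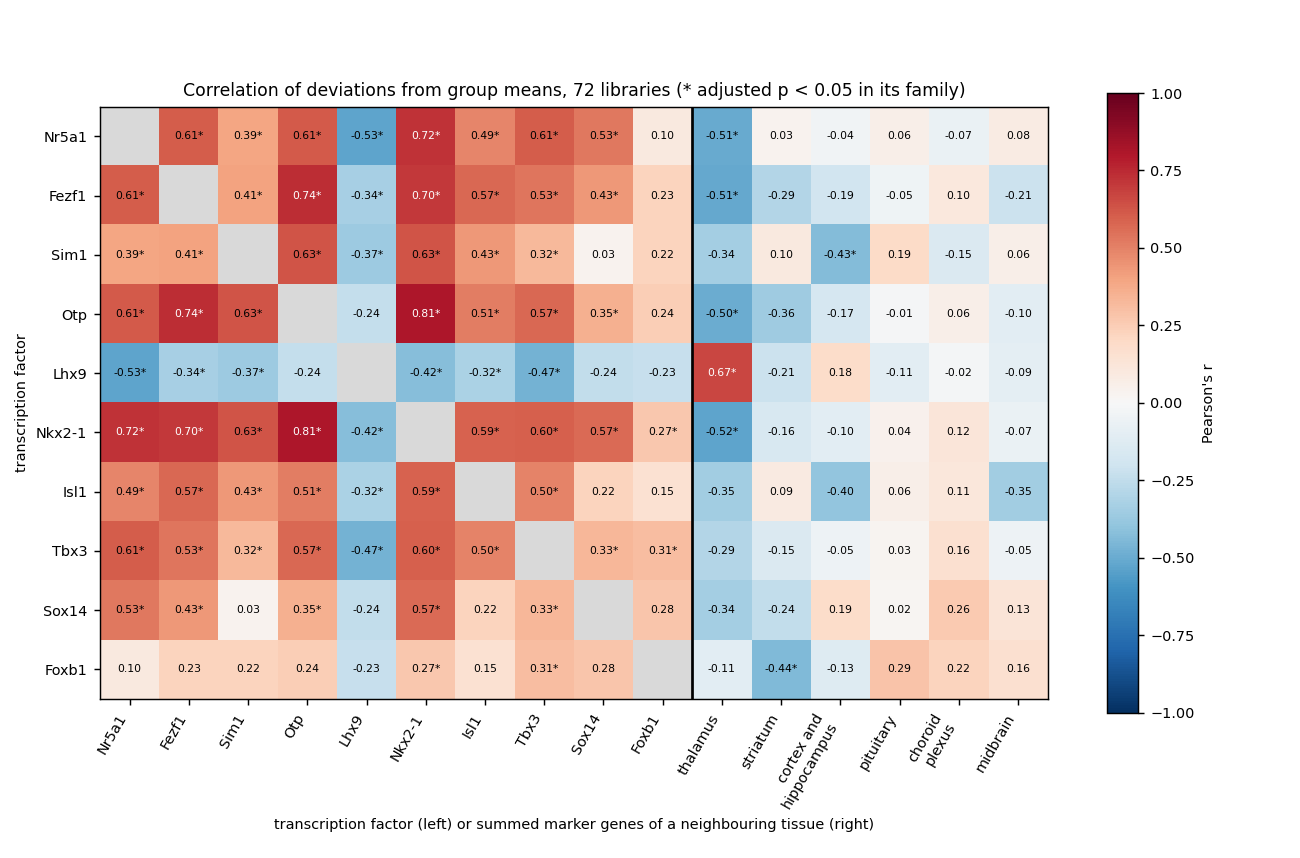
Pearson's r of deviations from group means over 72 libraries between the 10 factors (left of the line) and between each factor and the summed marker genes of 6 neighbouring tissues (right of the line); asterisks mark an adjusted p under 0.05 within each family. Lhx9 is negative with the other 9 factors and has r = 0.67 with the thalamus sum.

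The same deviations were set against summed marker genes of 6 neighbouring tissues, 60 relations in all, a family added after the values were seen. Of these 7 passed by Pearson's r and 8 by rho. Lhx9 rose with the thalamus sum (r = 0.67, rho = 0.52, permutation p 1e-05 and 0.00018, adjusted p 6e-04 and 0.0036). Nkx2-1 (r = -0.52, rho = -0.53), Fezf1 (-0.51, -0.58), Nr5a1 (-0.51, -0.48) and Otp (-0.50, -0.46) fell as it rose, with permutation p of 0.00015 to 0.00035 for r and adjusted p of 0.00375 to 0.0042. Sim1 with the cortex and hippocampus sum (r = -0.43) and Foxb1 with the striatum sum (-0.44) also passed. With the pituitary sum 0 of 10 factors passed, although that sum ranged most widely of all between libraries. How many of all genes would pass with these sums is not given here.

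Line by line, Lhx9 and the thalamus sum had r = 0.85 (E1), 0.61 (E2), 0.74 (E3) and 0.68 (E4), but -0.11 in E5. The thalamus sum ran from 358 to 713 CPM in E5 and from 423 to 883 in E4. Without the 2 libraries farthest from the median r was 0.64, and without any 1 library it was 0.62 to 0.70. The relation of Nkx2-1 with the thalamus sum was negative in all 5 lines, from -0.94 in E2 to -0.13 in E3, and r was -0.42 without the 2 farthest libraries. Those of Fezf1, Nr5a1 and Otp were negative in all 5 lines as well. The plot of single libraries shows these relations.

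**Figure D5:**
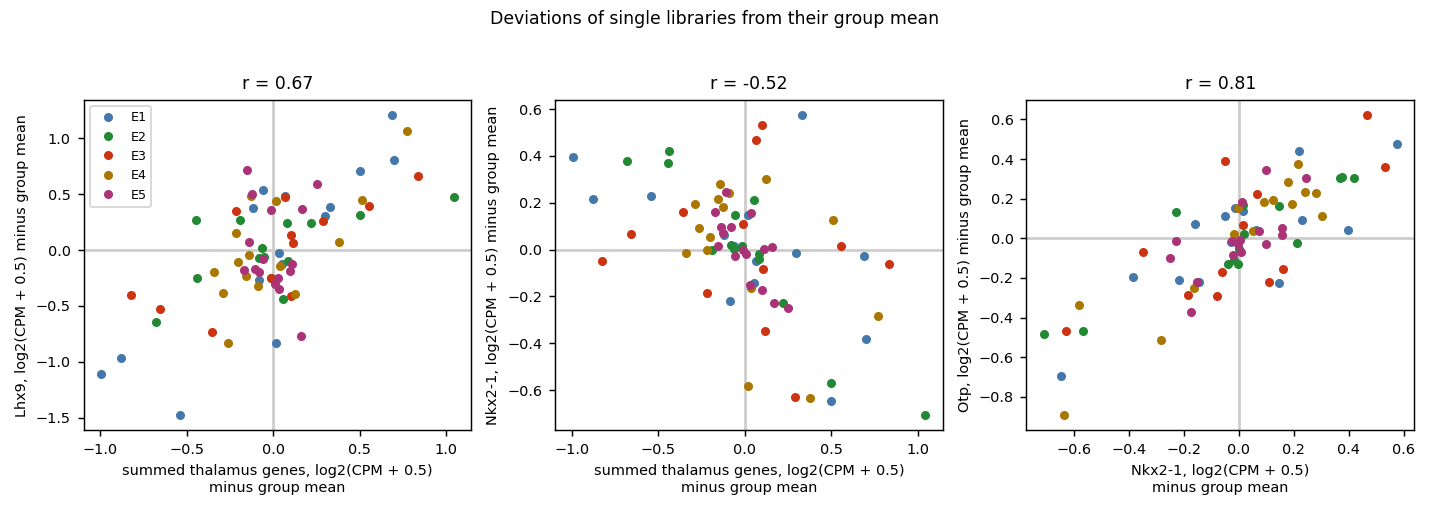
Deviations of single libraries from their group mean in log2(CPM + 0.5), coloured by line: Lhx9 against the summed thalamus genes (left), Nkx2-1 against the same sum (middle) and Otp against Nkx2-1 (right). Points rise in the left panel (r = 0.67) and the right (r = 0.81) and fall in the middle (r = -0.52).

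The factors were then set against the peptides and other genes of their own nuclei, 29 relations, a family also added after the values were seen. Of these 16 passed by r and 17 by rho (permutation test, Benjamini-Hochberg over the 29). How many of all genes would pass with these factors is not given here. The counts therefore do not set genes of a factor's own nucleus apart from others. Otp rose with Trh, thyrotropin-releasing hormone (r = 0.83, rho = 0.81), Oxt, oxytocin (0.72, 0.63) and Avp, vasopressin (0.67, 0.63), each at a permutation p of 1e-05, the smallest these permutations can give, and an adjusted p of 7.25e-05 for r. Without the 2 farthest libraries r was 0.80, 0.66 and 0.58. Sim1, the other factor of these neurons, passed with Trh (r = 0.43, permutation p 0.00089; -0.43 in E5 alone) and not with Oxt (0.24), Avp (0.15) or Crh (0.10). Crh, corticotropin-releasing hormone, did not pass with Otp either (0.20).

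In the ventromedial nucleus, Fezf1 and Nr5a1 rose with Adcyap1, which encodes the peptide PACAP (r = 0.76 and 0.66, permutation p 2e-05 and 4e-05), and with the nuclear receptor gene Nr0b1 (0.56 and 0.43), and neither passed with Gpr149. In the arcuate nucleus, Isl1 rose with Npy (r = 0.57, permutation p 2e-05) and Tbx3 with Npy (0.40) and Ghrh (0.31), while 0 of the 4 relations with Pomc and Agrp passed by r. Tbx3 with Pomc passed by rho (0.41) and not by r (0.26). The summed arcuate list, which holds Pomc, was uneven in the libraries with over 1000 CPM of pituitary genes. It was at 95.5, 664 and 1479 CPM in fasted E2 WT. In fasted E4 KO 3, E5 KO 3 and E5 WT 3 it was at 578, 1375 and 429. The part of pituitary tissue in the Pomc relations was not tested. Among mammillary genes, Foxb1 passed with Lhx1 (r = 0.68, permutation p 1e-05, the smallest these permutations can give), Barhl1 (0.43), Foxa1 (0.41) and Lhx5 (0.36). Lhx9 passed with neither of the peptides of the lateral hypothalamus, Hcrt (r = -0.18, permutation p 0.119) and Pmch (-0.11, 0.408).

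As a description, with no test, the genes most like each factor over the same 72 deviations were sought among 14224 genes by Pearson's r. For Lhx9 they were Gbx2 (0.83), Zic1 (0.82) and Shox2 (0.79). Irs4 was nearest to Otp (0.87) and to Fezf1 (0.83), and was among the 3 nearest to Nkx2-1 (0.82), whose nearest was Hdc (0.85), the gene for histidine decarboxylase. Otp was followed by Tmem130 (0.85) and Hap1 (0.84), Nkx2-1 by Baiap3 (0.83), and Fezf1 by Gpr50 (0.81) and Trh (0.79). Nr5a1 was nearest to Nkx2-4 (0.81), then Ccdc157 and H2-Q2 (0.73 each), and Tbx3 to Fzd5 (0.80), Col23a1 and Bsx (0.72 each). Sim1 was nearest to Zim1 (0.73), N4bp2 (0.71) and Zbbx (0.70), Isl1 to Tac1 (0.73), Pdyn (0.69) and Camk1g (0.67), Foxb1 to Lhx1 (0.68), with Nxph4 at 0.54, and Sox14 to Sap30bp, Tbc1d24 and C1ql2 (0.66, 0.66 and 0.65). These points share library, depth and dissection.

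Of the 36 other hypothalamic transcription factors, 0 passed in any genotype comparison (0% of all genes called, edgeR). Of the 30 or 31 tested, 0 to 6 per comparison had an unadjusted p under 0.05, where 2.82% to 17.5% of all genes did. The smallest p in each direction belonged to these, given as log2 of KO over WT. In fed E1 they were Sim2 (0.47) and Lhx2 (-0.48), and in fasted E1 Foxd1 (0.62) and Prdm12 (-0.49). In fed E2 they were Lhx2 (0.47) and Barhl1 (-0.78), and in fasted E2 Foxa1 (0.79) and Six6 (-1.02). In fed E3 they were Lhx8 (1.08) and Lmx1a (-0.72), and in fasted E3 Lmx1a (0.70) and Lhx6 (-0.85). In fed E4 they were Zic1 (0.36) and Onecut2 (-0.09), and in fasted E4 Lmx1a (0.41) and Foxd1 (-1.42). In E5 they were Foxa1 (0.36) and Rax (-0.71) when fed and Foxa1 (1.0) and Zic1 (-0.48) when fasted. Lmx1a had opposite signs in fed and fasted E3, and its interaction there was 1.43 (SE 0.48, edgeR adjusted p 0.123).

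In the wild type fasting comparisons 0 of the other factors passed either, with 31 tested in E1, 30 in E3 and 31 jointly. Among positive estimates Lhx2 had the smallest p in all 3 (log2 0.71, 0.53 and 0.61), and among negative ones Six3 (-0.42) in E1, Lmx1a (-0.93) in E3 and Six3 (-0.33) jointly had it. In E3 knockouts they were Lmx1b (1.19) and Lhx6 (-1.26). For the interaction the smallest p in each direction belonged to Zic1 (0.91) and Sim2 (-0.74) in E1, Lmx1a (1.10) and Lhx2 (-0.98) in E2, Lmx1a and Lhx6 (-1.53) in E3, Lmx1a (0.51) and Lhx2 (-0.92) in E4, and Barhl1 (1.15) and Dlx5 (-0.37) in E5. None of these passed.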

How the data were processed

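RNA-seq read counts per Ensembl gene were deposited by the authors as 10 tables of raw counts, 1 for each line and feeding state, 72 libraries in all, from mouse hypothalamus. HISAT2, Bowtie2, edgeR and the mm10 build are named in the submitters' processing notes; versions, the counting tool and the strand setting are not given in the sources used here. The authors also deposited edgeR results for 8 genotype comparisons as log2 fold changes of WT over KO, with p-values and adjusted p-values; they were read only for the 10 factors, and their 58 columns of normalized values were not used. All count columns were matched to a library by name, leaving 0 unmatched.

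The 10 factors, the other gene lists and the tests were chosen with earlier results of these data known. Counts were fitted with edgeR 4.0.16 in R 4.3.3 (TMM, genes filtered by filterByExpr with min.count 10 and min.total.count 15, quasi-likelihood test, Benjamini-Hochberg over all genes tested, called under 0.05), and the scripts were tested on simulated data. KO was compared with WT in each line and feeding state, fasted with fed in E1 and E3, and their interaction in each line. Correlations used log2(CPM + 0.5) deviations from group means in Python 3.11.15 with SciPy 1.17.1, where CPM was computed from the deposited counts. Alternatives were DESeq2 1.42.0, RLE scaling, unfiltered genes, 1 model for both feeding states, a replicate block, each library left out, other pseudocounts, TMM-scaled CPM and single lines. Named were all 10 factors by range, those called or with an unadjusted p under 0.05 in full, other factors where called and otherwise the smallest p per direction, and the 3 genes most like each factor. Replicate numbers were not taken to pair samples: in 0 of 6 comparisons with shared numbers did every same-numbered pair correlate over 0.1. In fasted E3 by genotype, same-numbered pairs had r of 0.07 to 0.24 and other pairs -0.17 to 0.08, so pairing there is not settled. Depth was 5517552 to 39999368 counts, which limits the precision of Sox14 and Foxb1 most. Gene positions are from GENCODE on GRCm38 and promoters from RefSeq. Kiss1, listed at 0 in every library, was left out of the relations. Results for 1 further gene are not reported here.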

Additional observations from a re-analysis of the deposited data

Results flagged for a closer look

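In 17 of 120 sets of 4 libraries (12 groups by 10 factors), 1 library lay apart from the other 3 by Dixon's criterion (gap over range above the 95% critical value), where chance gives about 1 set in 20. The factors vary together and the sets share libraries, so the 120 sets are not separate trials. That rate therefore cannot judge the count of 17. Fed E4 WT 4 gave 6 of them, all low: Nr5a1 at 2.88 CPM (others 8.19 to 9.12), Fezf1 at 2.66 (9.21 to 9.82), Otp at 13.2 (29.4 to 32.4), Nkx2-1 at 8.76 (15.8 to 16.5), Sox14 at 1.28 (2.21 to 2.33) and Foxb1 at 0.974 (1.91 to 2.06). Its summed striatum genes were at 1331 CPM (others 648 to 736) and its thalamus genes at 719 (497 to 520), and their part was not tested.

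Fed E4 KO 1 was high in Nr5a1 at 7.73 CPM (others 5.02 to 5.43), Lhx9 at 7.33 (4.51 to 4.85) and Tbx3 at 9.81 (6.36 to 6.58). Fasted E4 WT 2 was low in Otp at 43.4 CPM (69.3 to 70.8) and Foxb1 at 0.716 (2.10 to 2.28). Fasted E5 WT 2 was high in Fezf1 at 17.5 CPM (13.1 to 13.8) and Sox14 at 3.10 (2.14 to 2.24). The others were Lhx9 at 4.60 CPM in fasted E5 KO 2 (2.64 to 2.80) and 5.57 in fed E5 WT 4 (2.90 to 3.08), Isl1 at 19.4 in fed E4 WT 2 (14.6 to 15.3) and Sox14 at 1.47 in fed E1 KO 1 (2.71 to 2.95).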

How the results depend on the processing

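The counts of factors called by genotype and by interaction were 0 under every alternative run. For fasting in E1 knockouts, 3 factors were called, 5 with DESeq2 (Fezf1 and Tbx3 added) and 2 to 6 without 1 library. Fezf1 was also added with RLE scaling (edgeR adjusted p 0.0493) and with unfiltered genes (edgeR adjusted p 0.0452). Of all genes, 35.3% were called with DESeq2, 34.8% with RLE scaling and 27.7% unfiltered. In E3 wild types the count was 0 to 1 without 1 library, and 0 to 0 in E1 wild types and E3 knockouts. Wild types and knockouts of E1 and E3 in 1 fit called 2 factors, against 0 in wild types alone: Lhx9 (log2 0.81, adjusted p 0.0246) and Tbx3 (-0.37, adjusted p 0.0216, edgeR), with 33.1% of all genes called. The fit with a replicate block, run where numbers were shared, called 0 factors as well. In 1 of these comparisons, fasted E3 by genotype, all 3 WT libraries correlated best with the KO library of their own number.

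Of 45 pairs of factors, 34 passed. Single lines gave 12, 7, 0, 12 and 6 (E1 to E5), TMM-scaled CPM 26, pseudocounts of 0.1 and 2 CPM 31 and 34, wild types 32, and 27 to 39 passed without 1 library. Leaving out 6 libraries over 1000 CPM of pituitary genes and the shallowest library, chosen after the values were seen, gave 31 over 64 libraries, since fasted E4 KO 2 was then alone in its group and dropped out too. Of 60 tissue relations, 7 passed, 7 to 9 without 1 library, 0 in each of E2, E3 and E4 alone and 4 in E5 alone. The r of Lhx9 with the thalamus sum reversed to -0.11 in E5 alone. Where lines were taken alone, fewer libraries entered. Sox14 and Foxb1, at medians of 44 and 36 counts, are limited by depth.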
